A study of Oryctolagus cuniculus with 3 samples.

Results

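The vesicle transport genes measured here are 121 genes whose products form the coats, adaptors, tethers, RAB GTPases, SNAREs and sorting nexins of the secretory and endosomal pathways. They were chosen by symbol alone, from the RAB, SEC, COP, TMED, ARF, AP, VPS, SNX, STX and VAMP families, among the 6780 genes that could be named in the deposited value table. A further 16 genes of these families had probes on the array but none in the table and were not analysed here. By their known routes 43 of the 121 members were counted as secretory, 60 as endosomal, 9 as working at the junction of both, and 9 as neither. The 9 at the junction are the AP-1 and AP-4 adaptors and the trans-Golgi SNAREs, and the last 9 are lipid transfer proteins and genes of other or unsettled routes.

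The measurements come from late blastocysts of the rabbit (Oryctolagus cuniculus). Does were artificially inseminated and morulae were recovered on day 3. After slow freezing or vitrification the morulae went into recipient does, from which the embryos were collected on day 6, 3 days after transfer. Slow freezing cools embryos gradually, whereas vitrification hardens a concentrated cryoprotectant solution into a glass in liquid nitrogen. Each of 3 Agilent arrays carried RNA of frozen embryos in one dye and RNA of vitrified embryos in the other, and the labels call the arrays biological replicates. Frozen embryos were in Cy5 on replicates 1 and 3 and in Cy3 on replicate 2. All embryos had been stored and transferred, and fresh embryos were not analysed here. The breed and the number of embryos behind each RNA sample are not given in the sources used here.

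Proteins for export enter the endoplasmic reticulum through a translocon, leave it in vesicles with a COPII coat, and are returned from the Golgi by vesicles with a COPI coat. On the endosomal side, adaptors and clathrin bring cargo in, RAB GTPases give each endosome its identity, retromer and sorting nexins recycle cargo, and ESCRT complexes and the HOPS tether pass the rest to the lysosome. In the blastocyst, the trophoblast is an absorptive epithelium that takes up protein from uterine fluid.

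Every value is a log2 ratio of frozen over vitrified, so that a positive value means more signal in frozen embryos. Each gene is given by its brightest probe. All 22839 probes of the table were well above background in both channels of the 2 arrays with scanner output, and none was saturated there. The number of arrays limits the precision. The direction of the column of replicate 2 is likely but not stated, as it rests on spike-in probes, so values with its sign turned are given where they matter. In bulk RNA, fewer cells of a type and less RNA per cell cannot be told apart.

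The array probes of 7 genes are shown because the results turn on them. RAB13, RAB29, AP1S3 and RAB6B had the smallest p-values among the members, RAB6A is the close relative of RAB6B, and RAB5C and AP4B1 had ratios of opposite sign on different arrays. The last 3 were chosen after their values were seen. Capitals mark the run of bases that is common to all probes of the gene that overlap the printed one, and lower case marks the bases that at least 1 of them lacks.
RAB13: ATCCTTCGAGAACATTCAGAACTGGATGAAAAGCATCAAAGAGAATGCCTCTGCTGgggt
RAB29: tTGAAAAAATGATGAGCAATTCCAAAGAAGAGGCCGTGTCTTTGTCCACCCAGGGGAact
AP1S3: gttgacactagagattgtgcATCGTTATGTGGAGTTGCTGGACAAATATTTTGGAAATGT
RAB6B: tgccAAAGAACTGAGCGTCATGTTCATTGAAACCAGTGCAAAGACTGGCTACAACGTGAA
RAB6A: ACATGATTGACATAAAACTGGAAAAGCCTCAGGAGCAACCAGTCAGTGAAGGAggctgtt
RAB5C: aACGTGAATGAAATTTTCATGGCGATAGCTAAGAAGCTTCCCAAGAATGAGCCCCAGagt
AP4B1: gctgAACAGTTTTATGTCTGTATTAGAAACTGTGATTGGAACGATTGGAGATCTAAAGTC
All are 60 bases long and are printed 5′ to 3′ as the scanner files give them. The longest run that the brightest probes of RAB6A and RAB6B share is 7 bases, and they start at bases 559 and 431 of their transcripts. Whether either probe also binds the transcript of the other gene was not tested.

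No vesicle transport gene was called. When limma was fitted to all 22839 probes, 0 of the 121 members reached the threshold of 0.05 after Benjamini-Hochberg adjustment, the lowest adjusted value being 0.978. The background was the same, with 0.0% of all probes called. At an unadjusted p under 0.05 there were 4 members (3.31%), against 4.22% of all named genes and 4.47% of all probes. RAB6B was the 1 above 0, where 1.42% of named genes were called, and RAB13, RAB29 and AP1S3 were the 3 below 0, where 2.8% of named genes were called. The ratio had 1 sign on all 3 arrays in 21 members (17.4%), against 22.4% of named genes. Of these, 13 lay above 0 (10.7% of members and 10.7% of named genes) and 8 lay below it (6.61%, against 11.7% of named genes). RAB13 was the 1 member (0.826%) that also reached a mean of 1.5-fold, where 1.56% of named genes did. The median absolute mean ratio was 0.086 over the members and 0.112 over all named genes.

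RAB13, a RAB GTPase that brings recycling cargo and junction proteins to the surface of epithelial cells, had ratios of -0.34, -0.35 and -1.27 on replicates 1, 2 and 3. All 3 lay below 0, and replicate 3 stood well apart from the other 2. Its processed intensity was 88.1 in frozen and 111.5 in vitrified embryos on replicate 1, and 43.6 in frozen and 105.4 in vitrified embryos on replicate 3. The mean was -0.65 ± 0.54 (SD, n = 3), or 1.57-fold lower in frozen embryos, with an unadjusted limma p of 0.0313 and an adjusted p of 1.0. The gene is dim, with a mean log2 signal of 6.36. With the sign of replicate 2 turned, the mean was -0.42.

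AP1S3, a small subunit of the AP-1 adaptor that sorts cargo between the trans-Golgi network and endosomes, had -0.53, -0.37 and -0.34. Its arrays lay closer together than those of RAB13. Intensities were 330.7 in frozen against 477.8 in vitrified embryos on replicate 1, and 207.6 against 262.7 on replicate 3. The mean was -0.41 ± 0.10 (SD, n = 3), 1.33-fold lower in frozen embryos, with an unadjusted limma p of 0.0226, the smallest among the members, and an adjusted p of 0.978. Its 5 probes, which lie between bases 230 and 363 of the transcript by their first base, had means between -0.47 and -0.32. With replicate 2 turned the mean was -0.17.

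RAB29, a RAB GTPase of the trans-Golgi network and the lysosome, had -0.56, -0.13 and -0.59. Replicates 1 and 3 were alike and replicate 2 lay nearer to 0. The intensity was 58.3 in frozen against 85.7 in vitrified embryos on replicate 1, and 69.8 against 104.9 on replicate 3. The mean was -0.42 ± 0.26 (SD, n = 3) and the unadjusted limma p was 0.0379, and with replicate 2 turned the mean was -0.34. RAB29 is as dim as RAB13, with a mean log2 signal of 6.28.

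The other 5 members below 0 on every array were SEC24D, STX4, RAB11A, SEC31A and SNX27. SEC24D, the COPII subunit that picks cargo, had -0.07, -0.48 and -0.46, so that replicate 1 lay near 0 and the others together, and with replicate 2 turned its mean was -0.02 in place of -0.34. STX4, a SNARE of the plasma membrane, had -0.53, -0.03 and -0.14. RAB11A, the RAB GTPase of recycling endosomes, had -0.26, -0.10 and -0.28, and its 3 probes had means between -0.27 and -0.21. This brightest probe has a mean log2 signal of 11.52, and the spread of its arrays was small (SD 0.10, n = 3). The dimmer probes of RAB11A had 0.11, -0.54 and -0.40, and 0.09, -0.48 and -0.31, so that they lay above 0 on replicate 1. SEC31A, of the outer COPII coat, had a mean of -0.12 ± 0.11 and SNX27, a cargo adaptor of retromer, had -0.09 ± 0.09 (SD, n = 3 each).

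RAB6B, a Golgi RAB GTPase best known from neurons, had 0.80, 0.37 and 0.16. Replicate 1 was the highest of the arrays, and all lay above 0. The intensity was 534.4 in frozen against 307.7 in vitrified embryos on replicate 1, and 363.8 against 325.1 on replicate 3. The mean was 0.44 ± 0.32 (SD, n = 3), 1.36-fold higher in frozen embryos, with an unadjusted limma p of 0.0443 and an adjusted p of 1.0. With replicate 2 turned the mean was 0.20. When the scanner files of replicates 1 and 3 were background-corrected with normexp and normalized by loess, the means were -0.33 for RAB13, -0.19 for AP1S3, -0.22 for RAB29 and 0.28 for RAB6B, and all 4 kept their sign.

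VAMP4, a SNARE that returns vesicles from endosomes to the trans-Golgi network, had 0.48, 0.03 and 0.47. Replicates 1 and 3, which share a dye orientation, were close to each other and replicate 2 was near 0. Its unadjusted limma p was 0.0827. The array's own description of this probe names another VAMP, and the symbol used here is that of the current RefSeq annotation. SNX2, a sorting nexin that works with retromer, had 0.38, 0.28 and 0.20, with a mean of 0.29 ± 0.09 (SD, n = 3) and all arrays close together. Its mean was 0.10 with replicate 2 turned. TMED7 and TMED5, cargo receptors of early secretory vesicles, had means of 0.22 ± 0.06 and 0.21 ± 0.17 (SD, n = 3 each). TMED7 had 0.16, 0.27 and 0.24 by its brightest probe, so that these values lay together, and with replicate 2 turned its mean was 0.04. Its probe nearest the 3′ end had 0.40, -0.36 and 0.41, while its other probes lay above 0 on every array. VPS13B, a lipid transfer protein of the Golgi, and STX17, a SNARE of autophagosomes, both averaged 0.19, and in each a single array lay far above the other 2. SEC16B of endoplasmic reticulum exit sites, AP3S1 of the AP-3 adaptor, SEC11C of the signal peptidase, AP1G1 of the AP-1 adaptor and SNX4 had means between 0.11 and 0.16. The 4 probes of AP1G1 had means between -0.08 and 0.11, and only the brightest lay above 0 on every array. RAB1A, the RAB GTPase of transport to the Golgi, is the last of the 13 and averaged 0.09 ± 0.07 (SD, n = 3).

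**Figure D1:**
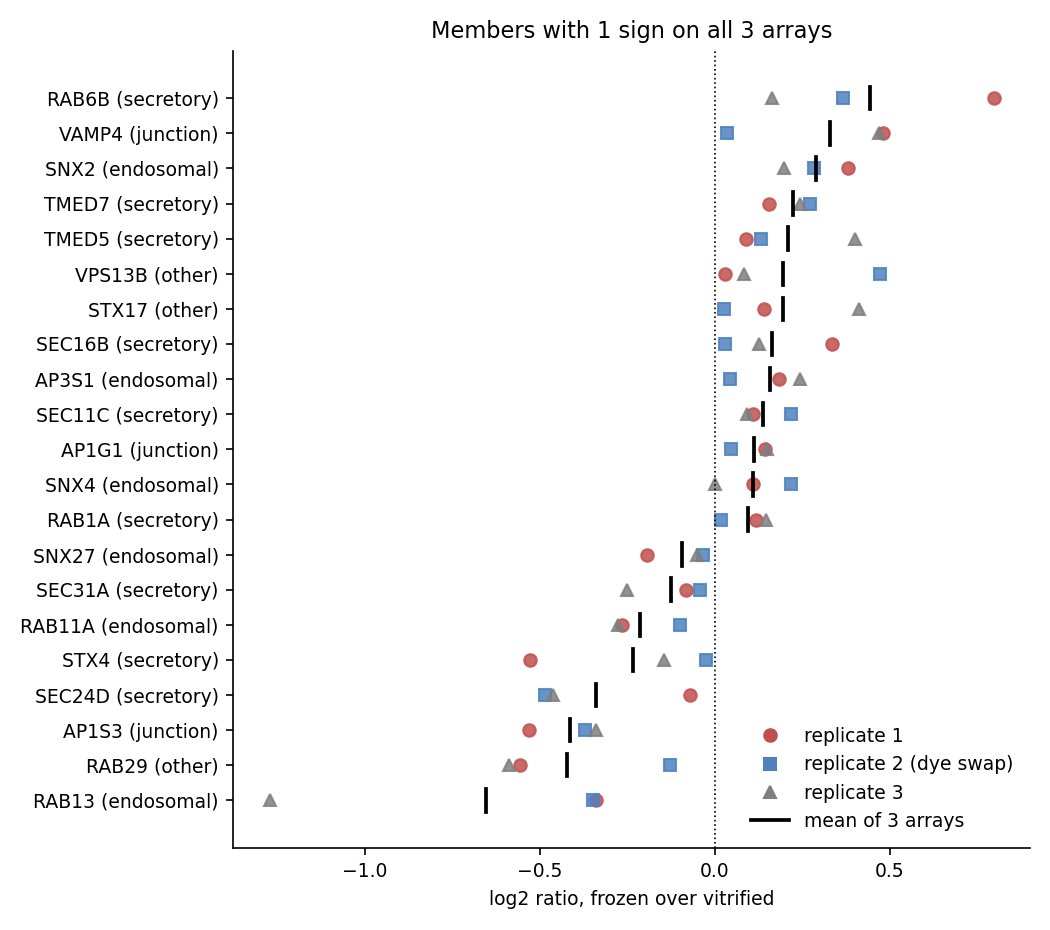
Log2 ratio of frozen over vitrified for the 21 members whose ratio had 1 sign on all 3 arrays, with 1 point per array and a black bar at the mean. RAB13 lies lowest, at a mean of -0.65 with replicate 3 apart at -1.27, and RAB6B highest, at 0.44.

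**Figure D2:**
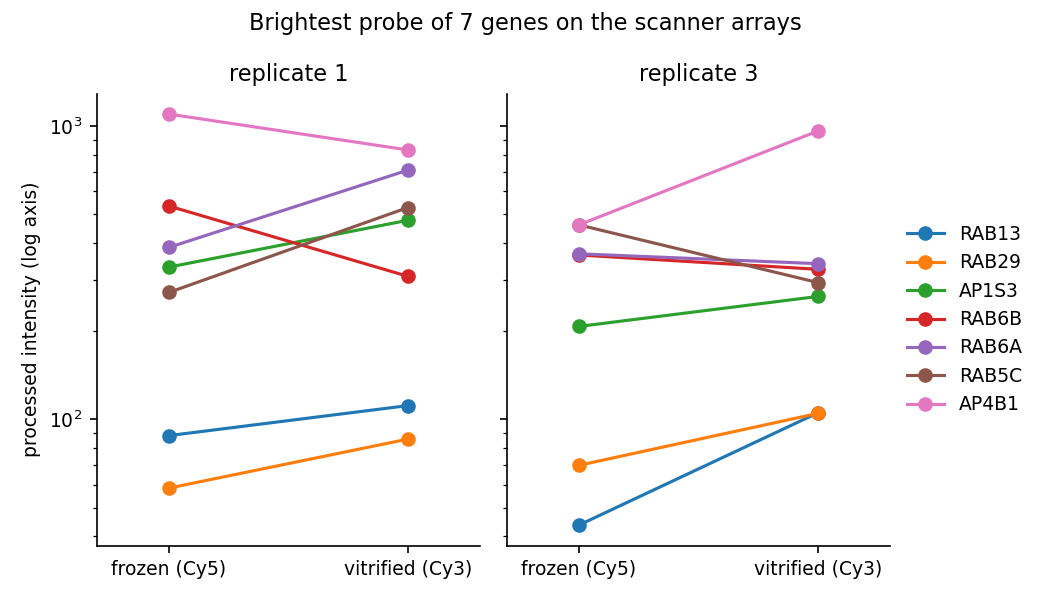
Processed intensity on a log axis of the brightest probe of 7 genes in frozen and vitrified embryos on the 2 arrays with scanner output, each line joining the 2 channels of 1 probe. RAB13, RAB29 and AP1S3 were lower in frozen embryos on both arrays, whereas AP4B1, RAB5C and RAB6A slope in opposite directions on the 2 arrays.

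Among the secretory members, the medians of the coats lay close to 0, while single genes varied more. On replicate 1 the COPI genes ran from -0.69 in COPZ1 to 0.40 in COPZ2. The COPII genes ran there from -0.60 in SEC13 to 0.33 in SEC16B. COPA, a COPI subunit, had -0.34 on replicate 1 by its brightest probe, at base 3639. Its probes between bases 1828 and 1957 lay between -1.09 and -0.99 on that array. The 6 COPI subunits had medians of -0.03, 0.02 and -0.07 on replicates 1, 2 and 3, and the 8 COPII genes had -0.04, -0.01 and 0.09. The COPI member with the smallest p was COPZ1, the zeta subunit of coatomer, with -0.69, 0.11 and -0.28 and an unadjusted limma p of 0.185. COPB1 and COPB2, the beta subunits, had means of -0.04 ± 0.08 and 0.003 ± 0.13 (SD, n = 3 each) at mean log2 signals of 12.5 and 12.46. These are among the bright members, and neither departed from 0 by more than its spread.

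Among secretory roles with at least 3 members, the 5 TMED cargo receptors and the 4 genes of the translocon had a median above 0 on every array. The TMED medians were 0.05, 0.13 and 0.21. TMED1, TMED2 and TMED10 had means of -0.02, 0.05 and -0.04, so that the rest of the family lay near 0. The translocon medians were 0.02, 0.09 and 0.16. With replicate 2 turned, the medians of both roles lie below 0 on that array. SEC61A1, the channel subunit, had -0.67, 0.19 and 0.23, and SEC61A2, its relative, had 0.25, -0.23 and 0.29 and the smallest p of the role, 0.547 unadjusted.

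The 9 secretory RAB GTPases had medians of -0.11, 0.13 and 0.08, and the 7 secretory SNAREs had -0.07, 0.00 and 0.09. ARF4, a Golgi GTPase that recruits coats, had -0.40, 0.00 and -0.21. RAB10 and RAB8B, which act late in secretion, averaged 0.03 and 0.01. Over all 43 secretory members 24 means lay above 0 and 19 below, and 1 had an unadjusted p under 0.05.

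At the junction of the routes, the 5 AP-1 genes had medians of -0.53, 0.05 and -0.22. Their ratios differed in sign. AP1B1, the large beta subunit, had -0.99, 0.34 and 0.11, while AP1G2, a gamma subunit, had 0.69, -0.41 and -0.44. AP1G1, the other gamma subunit, had 0.14, 0.05 and 0.15. Of the 2 AP-4 genes, AP4B1, the beta subunit of an adaptor of the trans-Golgi network, had 0.41, -0.67 and -1.06. Its intensity was 1100 in frozen and 829.9 in vitrified embryos on replicate 1, against 460.9 in frozen and 963.1 in vitrified embryos on replicate 3. The mean was -0.44 ± 0.76 (SD, n = 3), so that the spread exceeded the mean.

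Several endosomal roles had medians well below 0 on replicate 1. The 6 genes of the HOPS and CORVET tethers, which dock endosomes and lysosomes, had medians of -0.54, 0.18 and 0.02. VPS18, a core subunit, had -0.88, 0.24 and -0.00, and VPS41 alone of the 6 lay above 0 on replicate 1, at 0.39. The 5 ESCRT genes, which sort cargo into the lumen of endosomes, had medians of -0.46, 0.27 and 0.10. VPS4A and VPS4B, the ATPases that take ESCRT apart, had -0.82 and -0.64 on replicate 1, with 0.41 and 0.24 on replicate 2. VPS37B had the smallest p of the role, 0.604 unadjusted.

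The 15 endosomal RAB GTPases had medians of -0.26, 0.07 and 0.04. RAB5C, of early endosomes, had -0.96, 0.48 and 0.65, while its relative RAB5A had -0.08, 0.03 and -0.08. RAB5B had -0.64, 0.35 and 0.31, with the same signs as RAB5C. RAB7A of late endosomes had -0.38, 0.17 and 0.24. RAB38, of lysosome-related organelles, went the other way with 0.32, -0.79 and -1.01. RAB25, an epithelial recycling RAB GTPase, had -0.02, 0.16 and 0.42.

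The 13 sorting nexins had medians of -0.19, 0.24 and 0.14. SNX19 had -0.03, 0.64 and 0.88 and a mean of 0.50 ± 0.47 (SD, n = 3), with an unadjusted limma p of 0.0596. It had the highest mean among the members, but with replicate 2 turned its mean was 0.07 and that of VAMP4, then the highest, was 0.30. SNX17, which recycles lipoprotein receptors and integrins, had -1.08, 0.24 and -0.36 with a mean of -0.40 ± 0.66 (SD, n = 3). SNX31, its relative, had -1.49, 0.58 and 0.71 at a mean log2 signal of 5.3. The 3 retromer genes had medians of -0.22, 0.11 and 0.06, and VPS35, its core subunit, averaged 0.09 ± 0.29 (SD, n = 3). The 3 effectors of RAB11 had medians of -0.24, 0.62 and 0.18, in which RAB11FIP5 had -1.26, 0.88 and 0.36 at a mean log2 signal of 4.9. The 3 endosomal SNAREs had the opposite order, with 0.14, -0.07 and 0.07, and VAMP8 of late endosomes had 0.52, -0.23 and 0.07.

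The remaining endosomal roles held few genes. The 4 genes of the AP-3 adaptor, which sorts cargo to lysosomes, had medians of -0.10, 0.06 and 0.08. The 3 genes of the GARP and EARP tethers, which receive vesicles from endosomes, had -0.19, 0.13 and -0.01, and VPS53 averaged 0.08 ± 0.25 (SD, n = 3). VPS26C and VPS35L, of the retriever complex that recycles cargo apart from retromer, had -0.89 and -0.34 on replicate 1, and lay above 0 on both other arrays. AP2B1, of the clathrin adaptor at the plasma membrane, had 0.06, 0.02 and -0.06, so that all arrays lay near 0. ARF6, a GTPase of endosomal recycling, had -0.21, -0.07 and 0.31.

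**Figure D3:**
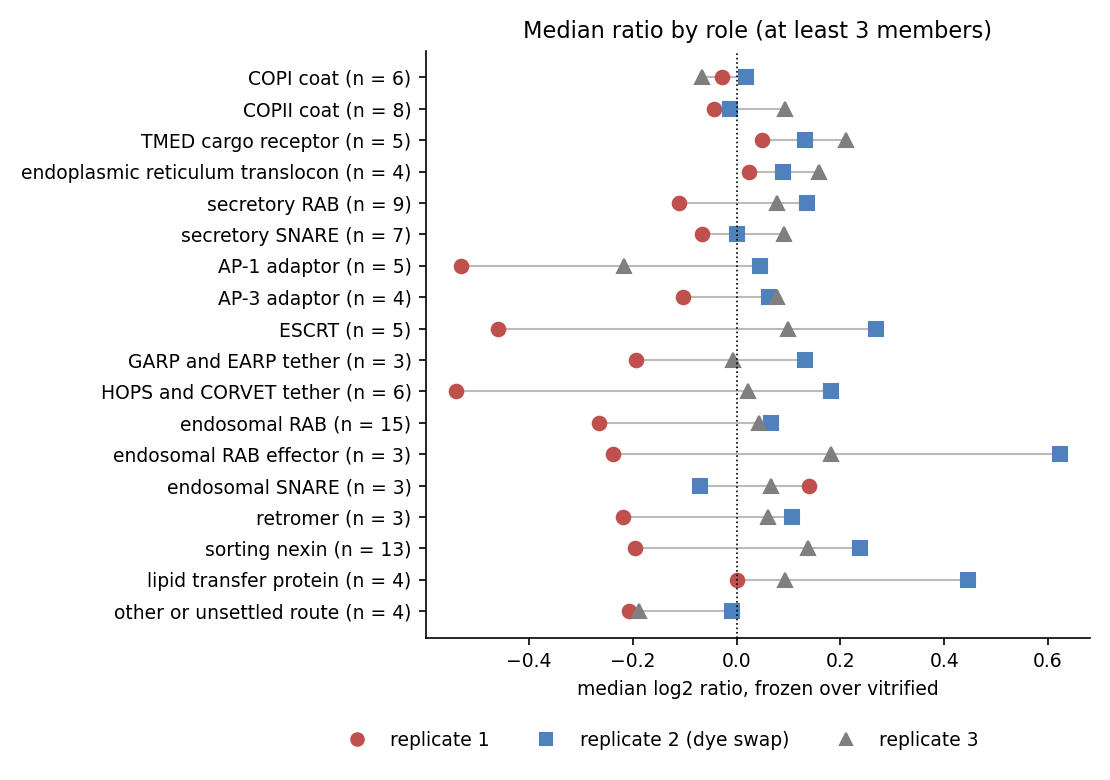
Median log2 ratio of frozen over vitrified for each role with at least 3 measured members, with 1 point per array and a grey line over their range; from the top stand the secretory roles, AP-1, the endosomal roles and the 2 remaining ones. The HOPS and CORVET, ESCRT and AP-1 medians lie at -0.54, -0.46 and -0.53 on replicate 1, whereas the COPI and COPII medians stay between -0.07 and 0.09 on all arrays.

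Set against each other, the secretory and the endosomal members did not differ beyond the spread between arrays. The medians of the 43 secretory members were -0.04, 0.08 and 0.08 on replicates 1, 2 and 3, and those of the 60 endosomal members were -0.22, 0.13 and 0.07. Secretory minus endosomal was 0.19, -0.05 and 0.01, with a mean of 0.05 ± 0.12 (SD, n = 3). The difference on replicate 1 was larger than that on the others. With replicate 2 turned the mean was 0.08. No p is given, since 3 arrays cannot go below p = 0.25 in a 2-sided exact sign-flip test. Over all 121 members the medians were -0.10, 0.09 and 0.08, beside -0.08, 0.04 and 0.02 over all named genes.

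**Figure D4:**
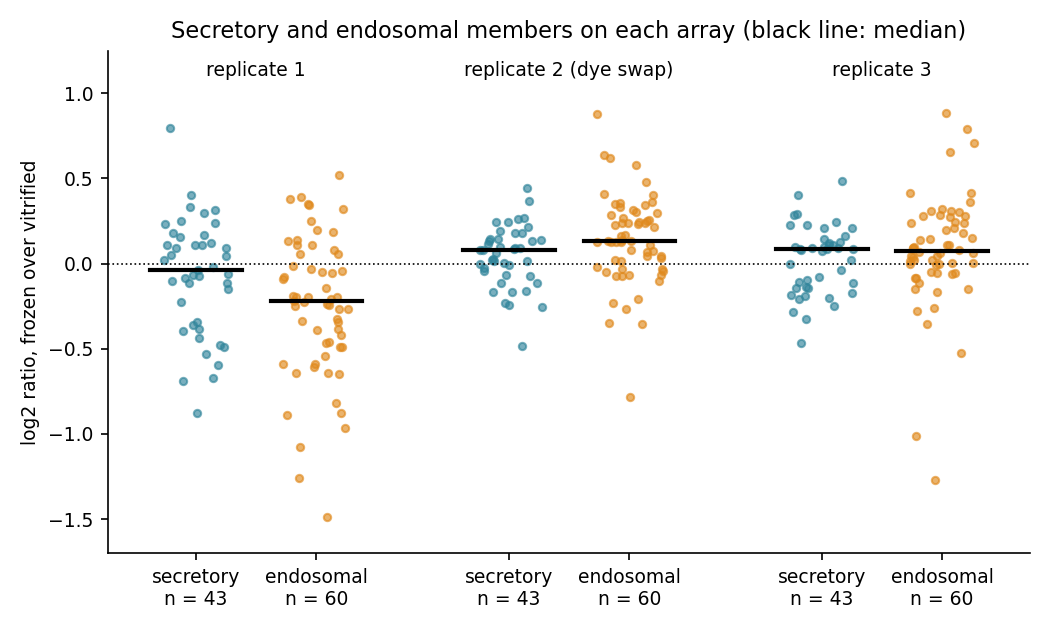
Log2 ratio of frozen over vitrified of each secretory (n = 43) and endosomal (n = 60) member on each array, with a black line at the median. The endosomal median is -0.22 on replicate 1, where 16 of 60 members lie above 0, and it is 0.13 and 0.07 on replicates 2 and 3.

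Many members differed in sign between arrays. A ratio below 0 on replicate 1 and above 0 on both others was seen in 49 of the 121 members (40.5%), against 25.2% of named genes. It was seen in 32 of the 60 endosomal members (53.3%) and in 13 of the 43 secretory members (30.2%). The reverse pattern was seen in 16 members (13.2%), against 14.2% of named genes. These shares depend on the direction of replicate 2. With its sign turned, the first pattern was seen in 4 members (3.31%), against 6.02% of named genes, in 3 endosomal members (5.0%) and in 1 secretory member (2.33%). The reverse was then seen in 7 members (5.79%), against 5.49% of named genes. Across the members Pearson's r was -0.52 between replicates 1 and 2, -0.18 between replicates 1 and 3, and 0.54 between replicates 2 and 3. Over the 6780 named genes these were -0.38, 0.01 and 0.47, and over the 60 endosomal members -0.59, -0.26 and 0.59. Genes on 1 array share its labelling and hybridization and are not independent, and the signs of the first and the last value turn if the column of replicate 2 is turned.

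The count of called members depended on replicate 1. Without it, on replicates 2 and 3 alone, 4 members had an adjusted limma p under 0.05 where 3.49% of all probes did. RAB38 had a mean of -0.90 on these arrays with an adjusted limma p of 0.016, and AP4B1 had -0.87 with 0.0226. SNX19 had 0.76 with 0.0286 and SNX31 had 0.64 with 0.047. On replicate 1 RAB38 and AP4B1 lay above 0 and SNX31 lay furthest below 0 of all members. RAB13 had -0.81 on these arrays with an adjusted limma p of 0.0895.

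Several measures of RNA and cell content were read beside this split, and not all of them set replicate 1 apart. Their part in it was not tested. In 211 transcripts that hold a pair of probes separated by 500 bases or more, the 3′ ratio minus the 5′ ratio had a median of 0.26 on replicate 1, against -0.13 and -0.06 on replicates 2 and 3. In the 6 such members it was 0.32, -0.10 and 0.16. Ratios on replicate 1 correlated with the GC content of the probe at -0.21 over the members and at -0.14 over named genes. On replicates 2 and 3 these were 0.12 and 0.07 over the members, and 0.01 and -0.02 over named genes. Of the 24 hypoblast markers 14 were measured, with medians of -0.12, -0.72 and -1.21. Of the 14 means 13 (92.9%) lay below 0, against 53.2% of named genes, and 0 passed with adjustment. At an unadjusted limma p under 0.05 there were 6 of 14 (42.9%), all below 0, against 2.8% of named genes below 0. On replicate 1, 5 of the 14 (35.7%) lay above 0, against 41.9% of named genes. The summed intensity of the 14 was 9048 in frozen against 9314 in vitrified embryos on replicate 1, and 8142 against 19840 on replicate 3. The 6 measured blood and immune markers had medians of 0.13, -0.20 and 0.02. Their summed intensity was 29900 in frozen against 5178 in vitrified embryos on replicate 1, and 4564 against 48830 on replicate 3, nearly all of it from the beta globin HBB2. HBB2 had 2.62, -3.77 and -3.59. The other 5 summed to 433.9 in frozen against 388.1 in vitrified embryos on replicate 1, and to 551.1 against 588.1 on replicate 3. Of these 5, ALAS2, an enzyme of heme synthesis in red cell precursors, had the signs of HBB2, at 0.34, -1.73 and -1.21, and S100A9, ITGAM, CD68 and CD14 did not on all arrays.

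The embryo label was checked on the trophoblast and epiblast lists. Of 16 trophoblast markers 9 were measured, among them GATA3, KRT8 and KRT19, and of 16 epiblast markers 7, among them POU5F1. CDX2, NANOG, SOX2, SOX17 and GATA6 were not analysed here. The 9 trophoblast markers summed to 25350 in frozen against 33880 in vitrified embryos on replicate 1, and to 36900 against 36470 on replicate 3. Most of these sums came from the keratins KRT8 and KRT19. On replicate 1 KRT8 gave 11080 against 18500 and KRT19 gave 10530 against 11850. On replicate 3 they gave 17300 against 18500 and 14670 against 14240. Of the 9 ratios 2 lay above 0 on replicate 1, and 6 did so on replicate 3. The 7 epiblast markers summed to 8597 in frozen against 12690 in vitrified embryos on replicate 1, and to 7042 against 12840 on replicate 3. POU5F1 alone gave 5319 against 8962 on replicate 1, and 3154 against 9711 on replicate 3. Of the 7 ratios 0 lay above 0 on replicate 1, and 4 did so on replicate 3. Of 9 uterine markers 3 were measured, and they summed to 689.6 in frozen against 1011 in vitrified embryos on replicate 1, and to 260.5 against 264.9 on replicate 3.

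Probes that overlap in at least 50 of their 60 bases show the scatter between near-identical probes of 1 gene on an array. They do not cover the differences between distant stretches of a transcript, which can be larger, as given above for COPA. There were 21 members with such runs, a comparison made after the values were seen. The SD between their probes, averaged over the arrays, had a median of 0.07. It was 0.137 in the 7 genes with a mean log2 signal under 7, and 0.062 in the 14 brighter ones. The 5 probes of AP4B1, printed above, lay between 0.41 and 0.54 on replicate 1, between -0.69 and -0.53 on replicate 2, and between -1.06 and -1.02 on replicate 3. The opposite signs of this gene are thus far larger than the scatter of its probes, which all start between bases 2165 and 2169. The 5 probes of RAB5C lay between -1.11 and -0.96 on replicate 1 and between 0.52 and 0.71 on replicate 3. In RAB13 the 5 probes spread from -0.36 to 0.13 on replicate 2, on both sides of 0, and in RAB29 from -0.13 to 0.14. For these 2 dim genes the single sign on replicate 2 is within the scatter of their own probes.

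**Figure D5:**
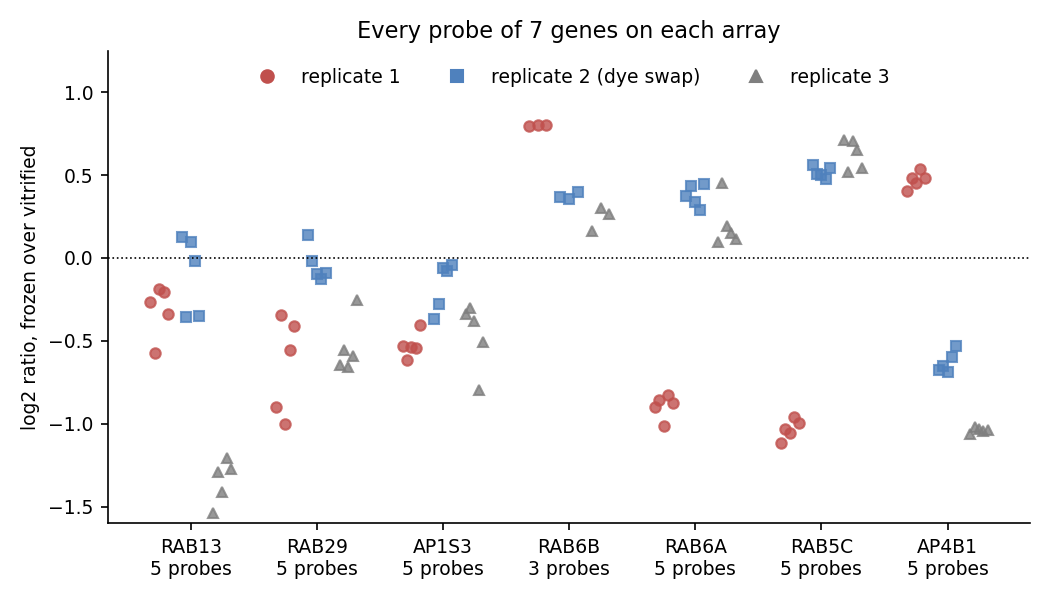
Log2 ratio of frozen over vitrified of every probe of 7 genes on each array, with 1 point per probe. The 5 probes of AP4B1 lie close together on each array and change sign between arrays, while those of RAB13 and RAB29 straddle 0 on replicate 2.

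Close relatives within the families were compared after their values were seen. Among 24 pairs of paralogs, the difference between the 2 members had 1 sign on all 3 arrays in 1 pair. This pair was lost with replicate 2 turned, and 7 others had 1 sign: those of COPZ, RAB6, SEC22, SEC31, SEC61A and VPS4, and VPS13C with VPS13D. SEC24A minus SEC24D was 0.05, 0.50 and 0.69. Both are cargo-selecting COPII subunits, and SEC24A averaged 0.07 where SEC24D averaged -0.34. RAB6A, the common form of this Golgi GTPase, minus RAB6B was -1.67, 0.08 and -0.05, so that the 2 forms differed on replicate 1 and lay together on the others. RAB6A itself had -0.88, 0.45 and 0.11. The brightest probes of a pair shared at most 14 bases in a row, but binding of a probe to the transcript of its relative was not tested.

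Other genes of the same routes, from lists chosen by function, were read off the same test. Of 88 other secretory genes 55 were measured, and 0 passed with adjustment. Their medians were -0.18, 0.01 and -0.02, and 41 means lay below 0 and 14 above. By comparison 53.2% of all named genes had a mean below 0, as did 74.5% of these. At an unadjusted p under 0.05 there were 2 of 55 (3.64%), both below 0, near the 4.22% of all named genes. KDELR3, a receptor that returns escaped proteins to the endoplasmic reticulum, had -1.23, -0.61 and -1.39, with an unadjusted limma p of 0.0019 and an adjusted p of 0.809. Without replicate 1 its mean was -1.001 with an adjusted limma p of 0.033. With normexp and loess on replicates 1 and 3 it was -0.40, and with replicate 2 turned -0.67. KDELR3 is dim, with a mean log2 signal of 5.91. Its relatives KDELR1 and KDELR2 had 0.40, -0.18 and -0.09, and 0.20, -0.21 and 0.02. GORASP1, a Golgi stacking protein, had -1.03, -0.14 and -0.44, and with normexp and loess its mean was -0.04 in place of -0.53. TRAPPC8 and TRAPPC4, of the complex that activates RAB1, had means of 0.31 ± 0.14 and -0.34 ± 0.37 (SD, n = 3 each). SAR1A and SAR1B, the GTPases that start the COPII coat, averaged -0.03 and -0.13, and LMAN1, a cargo receptor for glycoproteins, averaged 0.01.

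Of 82 other endosomal genes 49 were measured, and 0 passed with adjustment or at an unadjusted p under 0.05. Their medians were -0.03, 0.02 and -0.00, and 23 means lay above 0 and 26 below. On replicate 1 these other secretory genes had a lower median than the other endosomal genes, at -0.18 against -0.03, whereas the secretory members had a higher median than the endosomal members, at -0.04 against -0.22. Neither difference was tested. BIN1, which bends membranes, had -0.27, -0.34 and -0.22, and RABGEF1, an activator of RAB5, had 0.07, 0.50 and 0.36. MTMR2, a phosphoinositide phosphatase, and MVB12B, an ESCRT subunit, had means of 0.23 ± 0.10 and 0.19 ± 0.06 (SD, n = 3 each), with 1 sign on all arrays. CLTC, the clathrin heavy chain, averaged -0.06 ± 0.09, EEA1, a tether of early endosomes, 0.06 ± 0.23, and LRP2, the receptor megalin of absorptive epithelia, 0.18 ± 0.26 (SD, n = 3 each). CUBN, its partner, was not analysed here.

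The unfolded protein response, the reaction of the endoplasmic reticulum to misfolded protein, was read beside the secretory members. Of its 26 listed genes 14 were measured, with medians of -0.22, -0.24 and -0.27, and 0 passed with adjustment. HERPUD1, of the degradation machinery of the endoplasmic reticulum, had -0.61, -0.57 and -0.49, and the chaperone HSPA5 had -0.44, -0.03 and -0.28. At an unadjusted p under 0.05 there were 3 of 14 (21.4%), all below 0, against 4.22% of named genes in either direction and 2.8% below 0. The 3 were HERPUD1, CHAC1 and ATF3, and HSPA5 was not among them. CHAC1 and ATF3 are dim, with mean log2 signals of 5.74 and 5.67. Of the 14 means 3 lay above 0 and 11 below. The median of replicate 2 changes sign if its column is turned.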

How the data were processed

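The authors deposited scanner files for replicates 1 and 3, and 1 table with a column for each of the 3 arrays. Images were quantified in Agilent Feature Extraction 10.10.1.1, per the submitters' processing notes. The scanner files give intensities per channel, processed by background subtraction and dye normalization per the file headers, beside a log10 ratio of Cy5 to Cy3. The deposited table is in log2 ratios; neither centring nor direction is stated. Over probes with 1 spot it equalled log2 of processed frozen over vitrified intensity to within 3e-06 and 2e-06 on replicates 1 and 3, and its columns had medians of -0.01, 0.02 and 0.02. No scanner file of replicate 2 was used here. The 10 spike-in probes correlated at 0.99 between replicates 1 and 3, and replicate 2 correlated at -0.996 with replicate 1 and at -0.998 with replicate 3, so that its column was likely turned to frozen over vitrified. How the authors reduced 43603 probes to 22839 is not known here.

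Through gene names, descriptions, accessions and gene identifiers matched to the current rabbit RefSeq table (mOryCun1.1), 14465 probes got a symbol. Members had 342 probes. Each log2 ratio was tested against 0 in limma 3.58.1 (lmFit, eBayes; R 4.3.3) across all table probes, adjusted by Benjamini-Hochberg, at 0.05. Python 3.11.15 with pandas 2.3.3 made the summaries. P-values measure the spread between the 3 arrays. The fit was tested on 22839 simulated probes, whose noise was independent and had the same spread on all 3 arrays. Of 100 with a log2 shift of 1, 10 were recovered with adjustment and 95 without, and of 100 with a shift of 2, 86 and 100. The real SD over probes was 0.467, 0.342 and 0.354 on replicates 1, 2 and 3, so that these counts need not hold for the real arrays.

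Members, gene lists and tests were chosen with earlier results of these data known. Routes were assigned by function, and the VPS13 proteins were moved out of the endosomal members after the member names were seen. Named genes are members past the threshold, up to 12 per direction with the largest mean among those of 1 sign, the smallest p of each role with at least 3 members, the 4 smallest p of each list of other route genes, and 10 fixed genes; others were chosen after their values were seen. Alternatives were the sign of replicate 2, variance model, dye covariate, centring, background and normalization, dim probes, probe choice, route assignment and each array left out.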

Additional observations from a re-analysis of the deposited data

How the results depend on the processing

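The adjusted count of members was 0 in each of the 8 alternatives other than leaving out an array, and 0 to 4 with 1 array left out (4 without replicate 1). The unadjusted count, 4 in the report, was 0 with dye orientation as a covariate, 2 over probes with a mean log2 signal of at least 7 (91 members) and 2 with the median over all probes of a gene. Leaving out 1 array gave 0 to 16 of the 121 members, with 16 without replicate 1, 3 without replicate 2 and 0 without replicate 3. Of all 22839 probes, 3720, 1027 and 351 were under 0.05 in these fits, in the same order, and 1020 in the report. Over the brighter probes 685 of 16763 were under it, and with gene medians 308 of 6780 genes. With the dye covariate, whose fit leaves 1 residual degree of freedom on 3 arrays, 759 of 22839 probes were under it. The count of members of 1 sign and at least 1.5-fold was 1 in the report, where 1.56% of named genes met this. It was 0 with replicate 2 turned, with the dye covariate, with normexp and loess, over the brighter probes and with gene medians. It was 2 with processed signals of replicates 1 and 3, and 0 to 6 with 1 array left out. The share over all genes is not given for these alternatives. On 2 arrays 1 sign is easier to meet than on 3, so that such counts do not compare directly. With replicate 2 turned, the 3 members under an unadjusted p of 0.05 were AP1S2, RAB11FIP3 and SNX17, where 1064 of all 22839 probes were under it.

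Secretory minus endosomal moved by less than 1 SD in every alternative run, from -0.022 without replicate 1 to 0.098 without replicate 2. It was 0.040 with the VPS13 proteins as endosomal, an alternative chosen after seeing the data. The median of all members also moved by less than 1 SD in every alternative run, from -0.039 with replicate 2 turned to 0.085 without replicate 1.

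Signs turned for some named genes, and the cause was not tested. With replicate 2 turned, LMAN1 had -0.064, RAB11FIP1 -0.16, RABGEF1 -0.027, SAR1B 0.0048, SEC11C -0.0062, SNX4 -0.036, TRAPPC4 0.15, VPS13B -0.12, VPS35 -0.14, VPS37B -0.15 and VPS53 -0.016. With the dye covariate KDELR1 had -0.011 and KDELR2 -0.050, and KDELR2 had -0.0043 after centring and -0.017 with gene medians. With normexp and loess LMAN1 had -0.091, and with processed signals of replicates 1 and 3 LMAN1 had -0.041, VPS35 -0.036 and VPS37B -0.024. Leaving out 1 array gave -0.076 to 0.13 for EEA1, -0.13 to 0.16 for KDELR1, -0.093 to 0.11 for KDELR2, -0.063 to 0.13 for LMAN1, -0.097 to 0.036 for SAR1A, -0.082 to 0.29 for VAMP8, -0.44 to 0.12 for VPS18, -0.036 to 0.25 for VPS35, -0.028 to 0.41 for VPS37B and -0.026 to 0.21 for VPS53. Each ratio already pairs a frozen with a vitrified sample on 1 array, so that the test against 0 is the paired test and no further block was fitted.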
